A study of Mus musculus with 15 samples.

Results

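The data described here come from 6 of the 15 plantaris libraries of a mouse training study, namely the 3 libraries of trained mice and the 3 of untrained mice sampled at 6 months of age. They were chosen by their column names, and 3 further columns titled as trained replicates 4 to 6 were kept apart because they form a separate block with LD identifiers. All mice were male HSA-GFP animals, in which the human skeletal actin promoter drives a tetracycline-controlled activator that switches on a histone 2B-GFP fusion and so labels the nuclei of muscle fibres. The untrained controls carried the same transgenes. Training began at 4 months and consisted of 8 weeks of progressive weighted wheel running (PoWeR). The labels do not say that replicates were separate mice, so each p-value sets the groups against a spread between samples that may in part be technical. The treatment field and the title said the same of the 6 libraries compared. It called the LD libraries sedentary although their titles call them trained, so LD values are set beside the others and not tested.

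PoWeR lets a mouse run on a wheel whose load is raised in steps, which joins endurance exercise with resistance. The plantaris is a fast plantar flexor of the lower leg that grows and shifts toward more oxidative fast fibres under such loading. Around its fibres lie a collagen-rich matrix made mainly by fibro-adipogenic progenitors, a dense capillary bed and resident macrophages, and all of these contribute RNA to a whole-muscle library.

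The deposited table listed 20406 genes, of which 14919 passed the filter on low counts and were tested. The 6 libraries held 20779748 to 27688826 counts. Muscle identity genes such as Acta1, Ckm and Ttn had a summed level of 115890 to 130690 CPM (read counts per 1000000, with each library's total adjusted by its trimmed-mean factor) in untrained and 112600 to 121120 CPM in trained muscle.

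Untrained replicate 1 stood apart from the other 5 libraries. Of 9675 genes with a mean of at least 4 CPM, 106 lay more than 2-fold above or below all other 5 libraries in untrained replicate 1. That number was 17 in untrained replicate 2, 3 in untrained replicate 3, and 6, 2 and 0 in trained replicates 1, 2 and 3. The first principal component, which held 30.2% of the variance of the 500 most variable genes, placed untrained replicate 1 at -25.05 and the others between -1.86 and 13.2. The counts over all genes are also given without it, as are many of the list counts and medians that moved with it.

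The 3 trained libraries differed from the untrained ones in a further respect that was noticed only after the values were seen. Transcripts made by the liver were present in all 3 of them. Albumin (Alb) had 0, 1 and 3 counts in untrained replicates 1 to 3, and 122, 205 and 128 counts in trained replicates 1 to 3. Summed over 17 liver-made genes, among them the apolipoproteins Apoa1, Apoa2 and Apob and the fibrinogen chains Fga, Fgb and Fgg, the untrained libraries had 1, 1 and 4 counts. The trained libraries had 238, 372 and 216 counts, and 14 of the 17 genes had no count in any untrained library. The sum made up 9.81 to 14.2 of every 1000000 counts in the trained libraries. The LD libraries had 2, 6 and 6 counts of these genes, and detrained replicate 1 of the 9-month block had 242. Of the 17 genes, Alb and Serpina3k passed the filter, at an edgeR adjusted p of 0.16 and 0.28. In the fit of the 6 libraries alone Alb passed the threshold (edgeR adjusted p 0.000797, and 0.000249 to 0.023 when single libraries were left out), as it did in the fit of 12 libraries without detrained replicate 1 (0.00172). DESeq2 gave no adjusted p for either gene. The part of these transcripts in other differences between the groups was not tested.

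**Figure D1:**
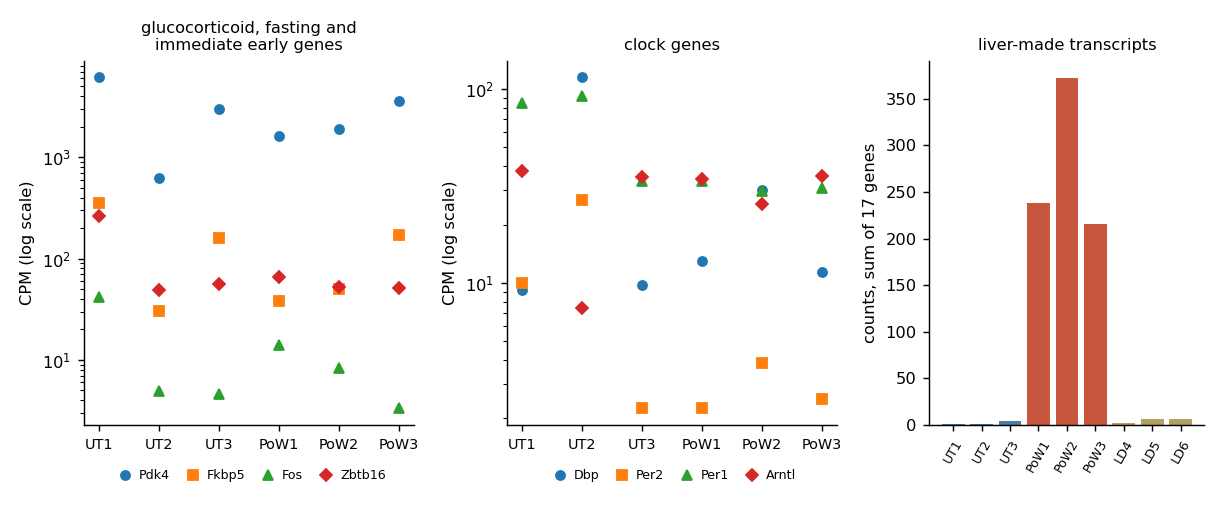
Libraries that stand apart. Left and middle, CPM on a log scale in untrained (UT) and trained (PoW) replicates 1 to 3: Pdk4, Fkbp5, Fos and Zbtb16 are highest in UT1, and Dbp and Per2 in UT2. Right, summed counts of 17 liver-made genes, 1 to 4 in untrained, 216 to 372 in trained and 2 to 6 in LD libraries.

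Trained and untrained muscle were compared over all genes to ask which transcripts differed after 8 weeks of PoWeR. Genes of the collagen matrix such as Col5a2 and Col3a1, the growth factor gene Igf1 and the mitochondrial enzyme genes Ckmt2 and Got2 were higher in every trained library than in any untrained one. Genes such as Fam57b, Msi2, Mib1 and Gpx3 were lower in every trained library. The differences were moderate in size. With edgeR's quasi-likelihood test and Benjamini-Hochberg adjustment, 0 of 14919 genes passed an adjusted p of 0.05, which is 0% of the genes. The smallest adjusted p was 0.0701, shared by Col5a2, Trp53i11 and Mmp2, which were higher, and by Fam57b and Msi2, which were lower.

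At an unadjusted p under 0.05 there were 1455 genes, or 9.75% of those tested, with 706 higher (4.73%) and 749 lower (5.02%). Without untrained replicate 1 there were 1067, with 550 higher and 517 lower. Scaled to library totals alone, in place of trimmed means, the split was 834 higher and 427 lower. At an unadjusted p under 0.01 there were 199 higher (1.33%) and 221 lower (1.48%). The 3 trained values lay above the 3 untrained ones in 1178 genes (7.9%) and below them in 1233 genes (8.26%). DESeq2, run as an alternative, called 112 of 14465 genes at an adjusted p under 0.05 (0.774%), 56 higher and 56 lower (0.387% each). The groups did not overlap in 111 of these 112 genes. The genes were picked on the same libraries, so this describes them and is not independent support. The number of DESeq2 calls moved with single libraries. It was 34 without untrained replicate 1, 34 without trained replicate 1 and 32 without trained replicate 2, of which 25, 29 and 21 were among the 112. Without untrained replicate 2 or 3 or trained replicate 3 it was 121, 147 and 100. In all 6 of these runs DESeq2 called 11 of the 112 genes. They were Trp53i11, Col5a2, Mmp2 and Igf1, which rose, and Fam57b, Msi2, Mib1, Gpx3, Apol6, H4c9 and Ppp1cb, which fell. Every other gene of the 112 was missed in at least 1 of these runs. Below, a gene is said to have risen or fallen only where DESeq2 called it over all libraries, and an edgeR p is unadjusted unless stated. The median log2 fold change of the DESeq2 calls was 0.73 for genes that rose and -0.51 for genes that fell. At least 2-fold changes were fitted for 12 genes that rose and 9 that fell. The median log2 fold change over all genes was 0.0013.

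**Figure D2:**
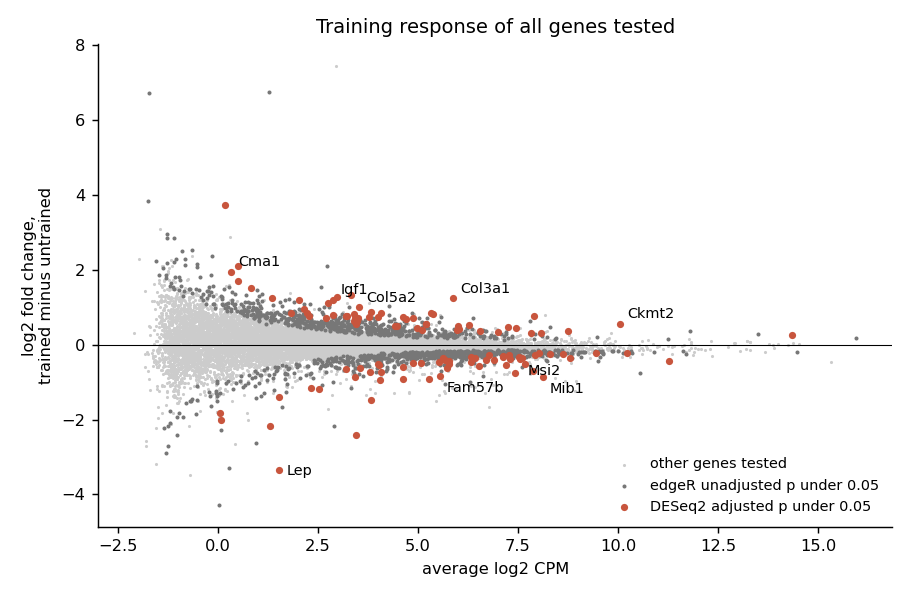
Log2 fold change, trained minus untrained, against average log2 CPM for the 14919 genes tested. Red points are the 112 genes called by DESeq2 and dark grey points the genes at an edgeR unadjusted p under 0.05. Called genes lie on both sides of 0 and few of them reach beyond 2-fold.

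Among the genes of clear expression with the largest positive changes, collagen and growth factor genes stood beside several less studied genes. No overlap between the groups was a condition for naming genes by the size of their change, in either direction. Trp53i11, a p53-inducible gene on chromosome 2 (93187548 to 93201759, mm10), had 5.64, 5.74 and 5.25 CPM in the untrained and 13.9, 14.3 and 11.8 CPM in the trained replicates. Its log2 fold change was 1.26 ± 0.21 (SE) and it rose in DESeq2 (adjusted p 8.52e-05). The untrained values were nearly the same in all 3 libraries and far below every trained value.

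Igf1, the insulin-like growth factor that drives muscle growth, had 4.30, 5.63 and 4.02 CPM in untrained and 12.3, 11.6 and 8.42 CPM in trained muscle. It rose by a log2 fold change of 1.21 ± 0.22 (DESeq2 adjusted p 0.00111), and the lowest trained library still exceeded every untrained one. Liver also makes Igf1. The part of liver-made transcripts in the Igf1 values was not tested. The LD libraries had 10.7, 13.98 and 10.3 CPM of Igf1, within or above the trained range. Untrained libraries of the 9-month block had 8.27, 7.11 and 7.09 CPM. These lay above every untrained value at 6 months and just below the lowest trained one. Of the 20 tested genes of the IGF pathway, Igf1 was the only one at an edgeR p under 0.05, and the list's median log2 fold change was 0.02.

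Tm6sf1, which encodes a membrane protein, rose from 4.09, 7.16 and 10.6 CPM to 18.5, 18.8 and 17.02 CPM. The untrained values were scattered while the trained ones were tight. Enpep, the aminopeptidase that cleaves angiotensin II, rose from 2.54, 2.87 and 2.54 CPM to 5.91, 6.04 and 6.35 CPM with almost no spread in either group. Arpp21, a cyclic AMP-regulated phosphoprotein, rose by 1.12 ± 0.26 and Plxdc1, a membrane protein of endothelium, by 0.95 ± 0.21 on the log2 scale. Bche, Hspa4l, Nedd9 and Tec had log2 fold changes of 0.96 to 1.09 with no overlap, and DESeq2 did not call them. Nedd9, a focal adhesion scaffold, stood at 4.05, 5.81 and 8.65 CPM untrained and 13.6, 12.1 and 11.2 CPM trained, against 5.37, 5.98 and 10.1 CPM in the LD libraries. The kinase gene Tec likewise stood at 4.97, 6.11 and 5.67 CPM in trained and 2.02, 2.67 and 3.48 CPM in LD libraries, the latter within the untrained range of 1.91 to 3.58 CPM.

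Among the genes of clear expression with large negative changes, Sntb1, a syntrophin of the dystrophin complex, fell from 20.5, 13.99 and 20.8 CPM to 7.50, 5.41 and 6.98 CPM, and the LD libraries had 6.87, 4.44 and 5.95 CPM. Both sets of libraries titled as trained lay well below the untrained range at 6 months. Untrained replicates 1 to 3 of the 9-month block had 6.96, 24.6 and 11.6 CPM. DESeq2 did not call Sntb1 in any of its runs without a single library (DESeq2 adjusted p 0.0692 to 0.357). The neuronal-type glucose transporter gene Slc2a3 fell by 0.96 ± 0.29 and the phosphatase gene Dusp14 by 1.19 ± 0.29 on the log2 scale. Dusp14 had 5.58, 7.07 and 5.14 CPM in the LD libraries, beside 5.94 to 9.74 CPM untrained and 1.85 to 4.48 CPM trained. Mib1, a ubiquitin ligase that acts on Notch ligands, fell from 309, 250.1 and 231 CPM to 169.8, 122 and 142 CPM. Its highest trained library was well below its lowest untrained one. Gpx3, the secreted glutathione peroxidase, fell from 217, 169 and 238 CPM to 125, 139 and 104 CPM. In the LD libraries it stood at 162, 130 and 192 CPM, the last within the untrained range.

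Fam57b, a gene linked to ceramide metabolism on chromosome 7 (126797668 to 126830219, mm10), had 64.6, 60.9 and 51.9 CPM in untrained and 30.9, 39.8 and 29.4 CPM in trained libraries. It fell by 0.82 ± 0.12 on the log2 scale and had the smallest p of all genes in edgeR, at 5.44e-06. Msi2, an RNA-binding protein of the Musashi family, fell from 221, 209.8 and 205 CPM to 159, 163 and 169 CPM. The change was small, but the libraries of each group lay close together and far from the other group. Ankrd1, which responds to stretch in muscle, fell from 9.64, 7.12 and 8.96 CPM to 6.003, 3.26 and 4.95 CPM, whereas the LD libraries had 5.28, 8.27 and 11.9 CPM. Irf5, Nudt18 and Rhbdl1 had log2 fold changes of -0.90, -0.79 and -0.73 without overlap and were not called by DESeq2. H2ac19 (-0.91) and H4c9 (-0.72) fell, but histone genes have near-identical copies between which reads could be split, so both values are uncertain.

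**Figure D3:**
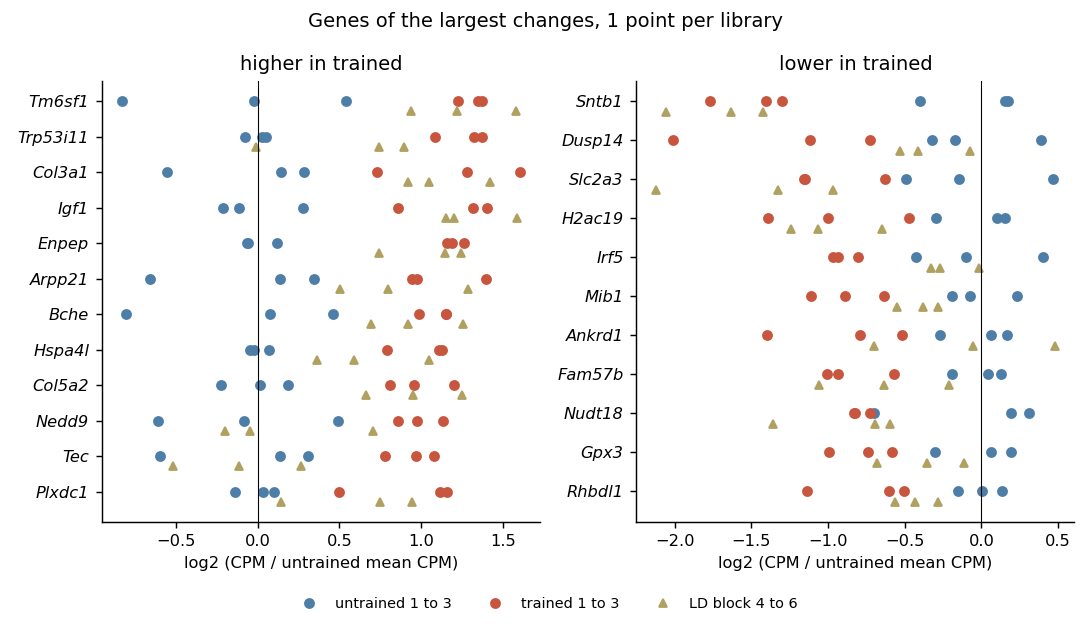
The 12 genes of the largest positive (left) and 11 of the 12 of the largest negative (right) log2 fold change among genes with an edgeR p under 0.01, an average log2 CPM of at least 2 and no overlap. Each point is 1 library, as log2 of its CPM over the untrained mean; triangles are the LD libraries. For Nedd9 2 and for Tec all 3 LD points lie among the untrained ones, and for Igf1 and Col5a2 all lie among or beside the trained ones.

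By p-value rather than size, the genes that rose included several of fibre energy supply and calcium handling. Ckmt2, the mitochondrial creatine kinase of muscle, had 949, 1027 and 1076 CPM in untrained and 1634, 1487 and 1368 CPM in trained libraries, a log2 fold change of 0.56 ± 0.10. The LD libraries had 1554, 1581 and 1365 CPM, the same range as the trained ones. Got2, the mitochondrial aspartate aminotransferase, rose from 400.4, 401 and 431 CPM to 556, 532 and 501 CPM. S100a1, a calcium sensor of striated muscle, rose from 59.2, 61.6 and 60.1 CPM to 97.1, 84.9 and 74.5 CPM, while the LD libraries had 58.2, 71.04 and 53.1 CPM. Eef1a1, the elongation factor form that adult muscle largely replaces with Eef1a2, rose from 209.9, 199 and 204 CPM to 249, 259 and 252 CPM. The groups did not overlap in any of these 4 genes. Peak1 rose as well, by 0.51 ± 0.10. Untrained libraries of the 9-month block had 23.3, 22.1 and 20.9 CPM of Peak1. At 6 months it stood at 15.6 to 18.5 CPM untrained and 23.2 to 25.7 CPM trained. For Eef1a1 the 9-month untrained libraries had 238, 246 and 245 CPM, above every untrained value at 6 months.

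The genes that fell with small p-values included signalling enzymes and secretory pathway genes. Camk2b, a calcium-calmodulin kinase subunit, fell from 217, 211 and 193 CPM to 169, 153 and 163 CPM, and Ppp1cb, a catalytic subunit of protein phosphatase 1, from 508, 437 and 513 CPM to 383, 386 and 375 CPM. Rpn1, a subunit of the glycosylation complex of the endoplasmic reticulum, fell by 0.45 ± 0.09 on the log2 scale. Its LD values were 62.0, 43.9 and 55.2 CPM, beside 56.6 to 61.8 CPM untrained and 40.8 to 50.2 CPM trained. Apol6 and the potassium channel gene Kcnq5 fell by 0.63 ± 0.11 and 0.51 ± 0.11. Aebp1 fell from 55.9, 52.4 and 51.5 CPM to 38.97, 40.1 and 37.7 CPM, with 23.1, 26.6 and 33.1 CPM in the LD libraries. Tceal7 fell from 16.2, 14.7 and 12.4 CPM to 10.1, 8.29 and 7.88 CPM, but the LD libraries had 25.7, 24.6 and 19.6 CPM, all above the highest untrained value. For Tceal7 the 2 blocks titled as trained thus lay on opposite sides of the untrained libraries.

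**Figure D4:**
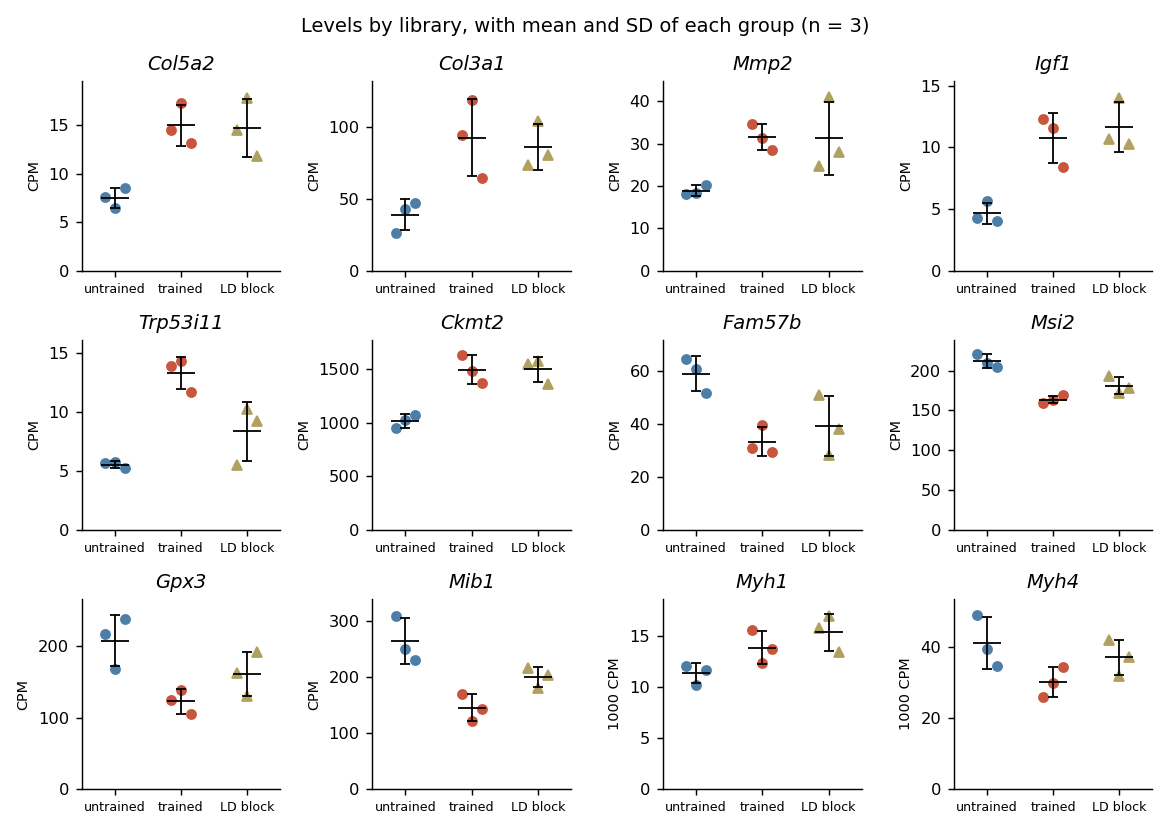
CPM in each library for 12 genes, with the mean and SD of each group of 3 (Myh1 and Myh4 in units of 1000 CPM). The trained and untrained points do not overlap in any panel, and for Trp53i11 the LD points run from the untrained level up to just below the trained ones.

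Collagen chain genes lay mostly on one side. Of 26 tested chains, 23 lay above 0, where 50.2% of all genes lay, and the median log2 fold change was 0.62. At an edgeR p under 0.05 there were 12 higher and 0 lower, or 46.2% of the chains beside 9.75% of all genes. DESeq2 called 5 chains, which all rose. The members were chosen with earlier results of these data known, so the count describes them and is not independent evidence of a direction.

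Fibril-forming collagens carried the largest values. Col5a2, a chain of type V collagen on chromosome 1, had 7.58, 6.41 and 8.52 CPM in untrained and 14.5, 17.3 and 13.1 CPM in trained libraries and rose by 1.001 ± 0.16 on the log2 scale. Col3a1, the chain of type III collagen, rose from 26.4, 42.97 and 47.2 CPM to 94.4, 118 and 64.4 CPM, by 1.25 ± 0.31. Trained replicate 3 was the lowest trained library for both genes and still lay above every untrained one.

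Basement membrane collagen changed less. Col4a1 rose from 70.5, 58.95 and 72.03 CPM to 96.5, 106 and 89.5 CPM and Col4a2 from 57.8, 55.9 and 54.99 CPM to 78.7, 81.98 and 63.5 CPM. These 2 genes lie head to head and their annotated ends overlap, so reads in the overlap are uncertain without strand. Col6a1, a microfibril collagen around fibres, rose from 18.5, 26.3 and 24.1 CPM to 37.3, 45.5 and 30.1 CPM. Col5a3 had a log2 fold change of 0.64 ± 0.20 and was not called by DESeq2. The summed level of the 26 chains was 330 to 402 CPM in untrained, 499 to 677 CPM in trained and 564 to 678 CPM in LD libraries. Without untrained replicate 1 the median was 0.48 with 10 chains higher, and without trained replicate 2 it was 0.47 with 7 chains higher.

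Most genes of the other matrix lists lay on the same side. Aebp1, given above among the genes that fell, is in none of these lists. Of 33 tested glycoproteins and proteoglycans, 29 lay above 0, with 12 higher and 0 lower at an edgeR p under 0.05 and a median of 0.28. The 12 are 36.4% of the list, beside 9.75% of all genes. Fibronectin, Fn1, rose from 26.5, 37.8 and 32.6 CPM to 51.7, 75.4 and 45.3 CPM and lumican, Lum, which spaces collagen fibrils, from 7.53, 14.8 and 10.1 CPM to 20.8, 24.1 and 14.99 CPM. Fibrillin, Fbn1, rose by 0.85 ± 0.28. Dcn, Postn and Fbln2 had log2 fold changes of 0.29, 0.83 and 0.23 and were not called by DESeq2. The count of 12 was 6 without untrained replicate 1, 6 without trained replicate 1 and 5 without trained replicate 2.

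Enzymes that build and cut the matrix were also higher in part. Loxl2, a collagen crosslinking oxidase, rose from 6.28, 8.93 and 10.1 CPM to 14.7, 14.1 and 12.97 CPM. Pcolce and Bmp1, which process procollagen ends, had log2 fold changes of 0.72 ± 0.19 and 0.50 ± 0.15. In all, 5 of 21 folding and crosslinking genes were higher and 0 lower at an edgeR p under 0.05 (23.8%, beside 9.75% of all genes). The list's median was 0.22, and 3 were higher without trained replicate 2. Mmp2, the gelatinase, rose from 18.1, 18.3 and 20.3 CPM to 34.8, 31.3 and 28.6 CPM, by 0.74 ± 0.12. Each trained library exceeded each untrained one by more than the spread within either group.

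The inhibitor Timp2, Mmp14, which activates Mmp2, Ctsk and Adamts12 had positive log2 fold changes of 0.32 to 0.80, none called by DESeq2. Of 23 tested proteases and inhibitors, 5 were higher and 1 lower at an edgeR p under 0.05, with a median of 0.39. Together these are 26.1% of the list, beside 9.75% of all genes. The 5 became 3 without untrained replicate 2 or trained replicate 3, and 8 without untrained replicate 3. Of 22 laminins and integrins, 5 were higher and 1 lower (27.3%, beside 9.75% of all genes), with a median of 0.18. Itga1, the collagen-binding integrin subunit, led them at 0.56 ± 0.15, and 2 were higher without untrained replicate 1, with a median of 0.09, or without trained replicate 1.

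Markers of fibro-adipogenic progenitors, the cells that make most of this matrix, were mostly higher as well. Lum and Dcn belong to both this list and that of glycoproteins and proteoglycans, so the counts of these lists are not independent. Of 17 markers, all tested, 16 lay above 0, with 7 higher and 0 lower at an edgeR p under 0.05 and a median of 0.39, which was 0.23 without trained replicate 2. The 7 are 41.2% of the list, beside 9.75% of all genes. Cd34, a surface marker of progenitors and endothelium, rose from 26.00, 34.4 and 29.9 CPM to 40.4, 51.5 and 41.2 CPM, and Clec3b from 7.49, 15.7 and 13.2 CPM to 21.3, 27.1 and 17.6 CPM. DESeq2 called Cd34 in 1 and Clec3b in 3 of its 6 runs without a single library. Pdgfra, the receptor that defines these cells, had 17.4, 16.7 and 19.5 CPM and 21.6, 23.6 and 24.9 CPM and no overlap, and DESeq2 did not call it. Smoc2 had a log2 fold change of 0.40 ± 0.13. The summed level of the markers was 929 to 1068 CPM in untrained and 1088 to 1268 CPM in trained libraries. Untrained libraries of the 9-month block had 1081, 1211 and 1229 CPM, so such a level was not particular to trained muscle. In whole muscle, more cells of a type and more RNA per cell cannot be told apart, and the part of these cells in the matrix values was not tested.

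Markers of tendon cells, which a dissected muscle can carry, were less uniform. Of 13 tested, 11 lay above 0 with a median of 0.21, but 1 was higher (Kera) and 1 lower (Angptl7) at an edgeR p under 0.05. Kera and Angptl7 are 15.4% of the list, beside 9.75% of all genes. The sum of the 13 was 128 to 153 CPM in untrained and 133 to 164 CPM in trained libraries, so the groups overlapped. Without untrained replicate 1 the median was 0.07 with 0 higher and 0 lower.

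**Figure D5:**
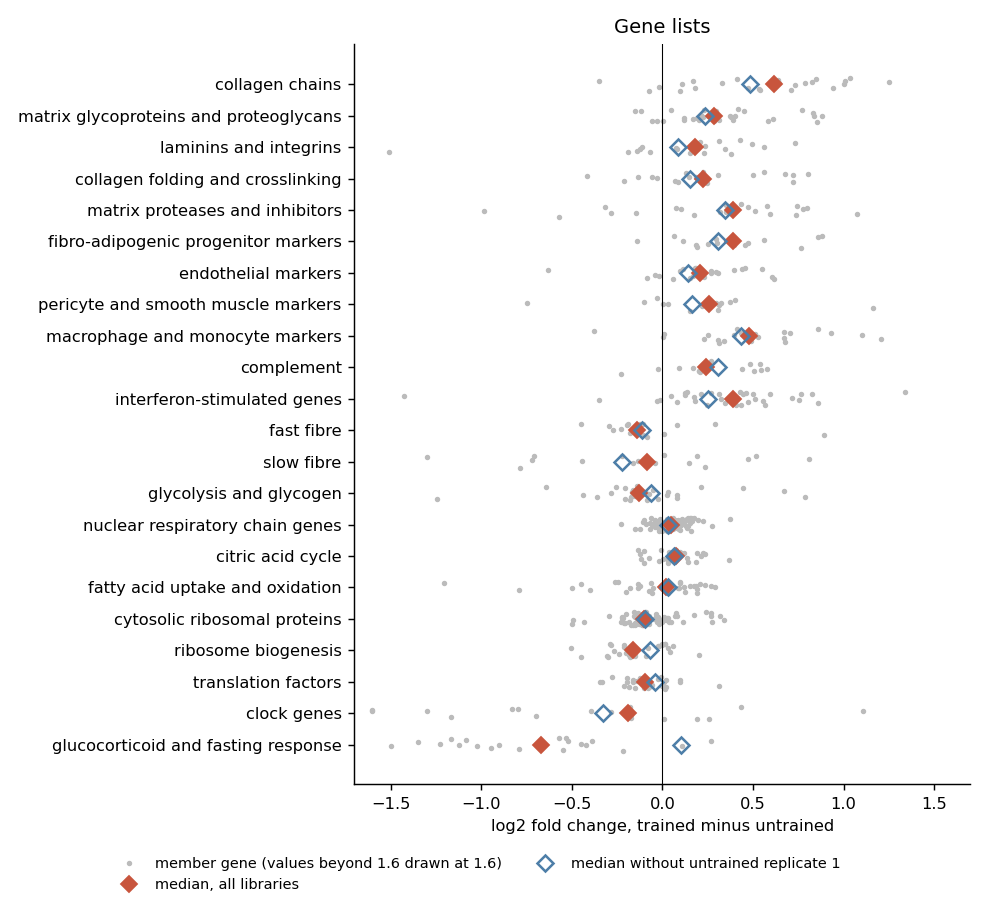
Log2 fold change, trained minus untrained, of the members of 22 gene lists (grey) with the list median over all libraries (filled) and without untrained replicate 1 (open). Matrix, progenitor and macrophage lists lie right of 0 in both settings, while the glucocorticoid and fasting list moves from -0.67 to 0.10.

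Endothelial markers were higher by a small amount. Of 22 tested, 18 lay above 0, with 8 higher and 1 lower at an edgeR p under 0.05 and a median of 0.21. Those under the threshold are 40.9% of the list, beside 9.75% of all genes. DESeq2 called none of the 22. Cdh5, the cadherin of endothelial junctions, had 70.9, 56.6 and 78.8 CPM in untrained and 95.1, 97.8 and 86.6 CPM in trained libraries. The angiopoietin receptor gene Tek had 13.9, 17.3 and 21.02 CPM and 25.5, 23.8 and 22.5 CPM, and Pecam1 64.5, 45.5 and 53.4 CPM and 69.2, 65.1 and 67.6 CPM. The trained libraries lay above the untrained ones in all 3 genes. The transcription factor gene Sox18 was lower, at 13.3, 15.5 and 11.8 CPM untrained and 9.61, 6.67 and 9.99 CPM trained.

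The count of 8 higher markers was 6 without untrained replicate 1, 4 without trained replicate 2 and 5 without any other single library. Their summed level was 592 to 621 CPM in untrained and 672 to 745 CPM in trained libraries. Untrained libraries of the 9-month block had 679, 654 and 650 CPM, the first of them within the trained range. The LD libraries had 639, 710 and 773 CPM. Of 24 angiogenic ligands and receptors, 1 was higher and 1 lower, Notch1 at 0.28 ± 0.12 and Fgf1 at -0.47 ± 0.16. Notch1 and Fgf1 are 8.33% of the list, no more than the 9.75% of all genes. Vegfa, the main angiogenic ligand, stood at 151, 230.2 and 190.1 CPM untrained and 184, 150.2 and 132 CPM trained, and the groups overlapped. Of 14 pericyte and smooth muscle markers, 3 were higher and 0 lower (21.4%, beside 9.75% of all genes). Rgs5, a pericyte marker, rose from 268, 261 and 264 CPM to 330.2, 347 and 308 CPM, and 1 marker of this list was higher without untrained replicate 2. DESeq2 called Rgs5 in 1 of its 6 runs without a single library.

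Macrophage markers were above 0 in 23 of 24 tested genes, with a median of 0.48, 5 higher and 0 lower at an edgeR p under 0.05. The 5 are 20.8% of the list, beside 9.75% of all genes. Lyz2, myeloid lysozyme, rose from 19.7, 18.8 and 21.8 CPM to 28.2, 38.5 and 29.3 CPM, and Mrc1, the mannose receptor of resident macrophages, from 4.99, 5.49 and 4.11 CPM to 7.22, 9.18 and 7.34 CPM. DESeq2 called Lyz2 in 5 and Mrc1 in 1 of its 6 runs without a single library. Fcgr3, an Fc receptor, stood at 1.33, 1.38 and 0.787 CPM untrained and 1.88, 2.48 and 3.78 CPM trained. The count was 3 without trained replicate 2. The summed level was 315 to 340 CPM in untrained and 326 to 407 CPM in trained libraries, so the sums overlapped.

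Mast cell genes were low in level and higher in trained muscle. Cma1, mast cell chymase, rose from 0.646, 0.283 and 0.350 CPM to 1.74, 1.78 and 1.44 CPM, by 1.95 ± 0.40. Mcpt4 and Cpa3, further mast cell proteases, had log2 fold changes of 1.47 ± 0.43 and 1.10 ± 0.46 without overlap. These 3 were the members at an edgeR p under 0.05 among 5 tested neutrophil and mast cell markers. The summed level of this list was 2.32 to 4.39 CPM in untrained and 5.76 to 9.24 CPM in trained libraries. Untrained libraries of the 9-month block had 9.34, 6.67 and 9.02 CPM, so such a level was not particular to trained muscle. Lymphocyte markers were close to absent: 1 of 15, Cd3e, passed the filter, and their sum was 0.387 to 0.962 CPM in untrained and 1.27 to 2.66 CPM in trained libraries. Of 14 complement genes 3 were higher (21.4%, beside 9.75% of all genes). They were led by C1s1, which rose from 19.4, 18.03 and 18.7 CPM to 25.7, 28.96 and 25.03 CPM. DESeq2 did not call C1s1 in any of its runs without a single library (DESeq2 adjusted p 0.0523 to 0.339).

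Interferon-stimulated genes lay above 0 in 31 of 35 tested members, with a median of 0.39. At an edgeR p under 0.05, 8 were higher and 0 lower (22.9%, beside 9.75% of all genes), and DESeq2 called 0. Without untrained replicate 1 the count was 1, with a median of 0.25, and without trained replicate 2 it was 2, with a median of 0.22. Ifit3, an antiviral effector, had 0.775, 0.957 and 1.49 CPM in untrained and 1.88, 2.67 and 3.60 CPM in trained libraries. The guanylate-binding protein genes Gbp2 and Gbp7 stood at 0.75 ± 0.31 and 0.50 ± 0.22, and Ifitm3, which blocks viral entry, at 0.55 ± 0.22. Antigen presentation genes were also above 0 in 13 of 16, with H2-Aa at 0.70 ± 0.20. The summed level of the interferon list was 129 to 170 CPM in untrained and 177 to 211 CPM in trained libraries.

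A promoter element known for genes of this kind is the interferon-stimulated response element. Its core was searched on both strands as GAAA, any 2 bases and a second GAAA in the 250 bases before the gene start (RefSeq, GRCm38.p6). It was found in 14 of 26 list members with a promoter entry (53.8%) and in 326 of 10578 genes tested that had one (3.08%). Of the 7 members at an edgeR p under 0.05 with an entry, 6 held it and Ifitm3 did not. Ifit3 (chr19:34583279-34583528, plus strand) has 2 matches and Rsad2 (chr12:26456453-26456702, minus strand) 1. No annotated exon overlaps either window. They are shown to let the element be compared, in capitals and on the opposite strand in each case. Rsad2, an antiviral enzyme, was chosen after its values were seen.
Ifit3: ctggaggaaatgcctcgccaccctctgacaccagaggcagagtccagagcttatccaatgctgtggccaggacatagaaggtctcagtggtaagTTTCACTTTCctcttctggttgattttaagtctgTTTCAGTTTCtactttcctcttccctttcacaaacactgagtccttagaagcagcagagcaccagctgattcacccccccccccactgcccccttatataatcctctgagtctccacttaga
Rsad2: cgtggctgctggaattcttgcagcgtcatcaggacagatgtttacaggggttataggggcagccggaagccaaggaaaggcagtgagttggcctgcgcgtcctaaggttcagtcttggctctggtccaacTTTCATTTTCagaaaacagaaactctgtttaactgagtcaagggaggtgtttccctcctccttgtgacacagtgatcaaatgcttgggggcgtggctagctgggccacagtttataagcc
The matches begin 156 and 122 bases before the Ifit3 start and 120 bases before that of Rsad2. Among collagen chains the CCAAT box was found in 40.0% of 20 promoters and in 40.1% of all with a promoter entry.

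Among the fast myosin genes, trained libraries had a smaller share of Myh4 and a larger share of Myh1 than untrained ones. Of the counts of the 4 adult myosin heavy chain genes, Myh4 (type IIb) held 76.6%, 73.6% and 68.6% in untrained replicates 1 to 3 and 56.0%, 64.7% and 66.9% in trained replicates 1 to 3. Myh1 (type IIx) held 18.9%, 19.2% and 23.2% in untrained and 33.7%, 26.7% and 26.7% in trained libraries. The groups did not overlap for either share. The exact two-sided permutation p was 0.1 for each, the smallest that 3 against 3 libraries allow. The ratio of Myh1 to Myh4 counts was 0.282 ± 0.0494 (SD) in untrained and 0.472 ± 0.113 in trained muscle (exact permutation p = 0.1). The shares and the ratio are not independent results, since Myh1 and Myh4 held most of these counts. In the gene-wise fit, Myh1 had a log2 fold change of 0.29 ± 0.10 (edgeR p 0.0108) and Myh4 of -0.45 ± 0.22 (edgeR p 0.0657). DESeq2 called neither gene.

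Slow fibre genes were few and uneven. Myh7, the slow myosin, stood at 2.41, 40.2 and 89.5 CPM untrained and 53.7, 19.2 and 8.10 CPM trained, with untrained replicate 1 lowest and no separation of the groups. Myh2, the type IIa myosin, stood at 2896, 3819 and 4051 CPM and 4720.0, 3909.7 and 3302 CPM and overlapped as well. Smtnl1, a smoothelin-like protein of contractile cells, rose from 131, 149 and 150.0 CPM to 210.3, 174 and 212 CPM. DESeq2 called Smtnl1 in 1 of its 6 runs without a single library. The median of 16 slow fibre genes was -0.09 and ran from -0.36 to 0.27 when single libraries were left out. Of 18 fast fibre genes 14 lay below 0, where 49.8% of all genes lay, with a median of -0.14, 1 higher and 3 lower at an edgeR p under 0.05. Together these are 22.2% of the list, beside 9.75% of all genes. The 3 were Myoz3, Cacna1s and Atp2a1, and they became 0 without untrained replicate 1, 1 without trained replicate 1 or 2, and 8 without trained replicate 3.

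Structural genes of the sarcomere moved in both directions. Acta1, skeletal alpha-actin, rose from 18931, 19473 and 19304 CPM to 23804, 21931 and 23497 CPM, a log2 fold change of 0.26 ± 0.07. DESeq2 did not call Acta1 in any of its runs without a single library (DESeq2 adjusted p 0.0917 to 0.321). Tcap, the titin cap protein, fell from 2954, 2865 and 2497 CPM to 1937, 2046 and 2121 CPM, by 0.45 ± 0.10. Myoglobin, Mb, stood at 3032, 3521 and 3771 CPM untrained and 4709, 4071 and 4423 CPM trained (edgeR p 0.00949) without overlap. Ckm stood at 0.01 ± 0.08. Of 25 stretch and sarcomere stress genes 2 were higher and 3 lower, with Hspb8 and Wwtr1 among the higher and Ankrd1 and Synpo2 among the lower. They are 20% of the list, beside 9.75% of all genes. Without untrained replicate 1 there were 0 higher and 1 lower, without untrained replicate 2 or 3 1 higher, and without trained replicate 1 or 3 0 higher.

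Mitochondrial genes differed little as groups. Transcripts of the mitochondrial genome held 19.01%, 18.64% and 19.10% of the counts in untrained replicates 1 to 3, and 20.95%, 21.12% and 19.77% in trained replicates 1 to 3. Every trained share was above every untrained one (exact permutation p = 0.1, the smallest possible). In the scaled levels of the gene-wise fit, 1 of 13 such genes, mt-Co1, was higher at an edgeR p under 0.05 (7.69%, beside 9.75% of all genes), and the median was 0.03. Their summed levels overlapped, at 180230 to 197840 CPM in untrained and 193120 to 201540 CPM in trained libraries. Reads of nuclear copies of these genes could not be set apart.

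Of 79 nuclear-encoded respiratory chain genes, 51 lay above 0 with a median of 0.05, 6 higher and 0 lower at an edgeR p under 0.05. That is 7.59% of them, no more than the 9.75% of all genes, and their summed levels overlapped between the groups. Cox7a1, the muscle form of a complex IV subunit, stood at 104, 112 and 121 CPM untrained and 142, 139 and 156 CPM trained, and Ndufc1 of complex I at 0.28 ± 0.08. The count was 3 without untrained replicate 1 or 2, 2 without trained replicate 1 and 13 without trained replicate 3. Of 25 citric acid cycle genes 4 were higher and 0 lower (16%, beside 9.75% of all genes), with a median of 0.08. They were Got2, Pdha1, Sdhb and Suclg2, and the count was 2 without untrained replicate 1 or trained replicate 1 or 2, and 10 without trained replicate 3. Cs, citrate synthase, stood at 817, 799 and 800.5 CPM untrained and 901, 876 and 791 CPM trained and the groups overlapped.

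Of 34 genes of fatty acid uptake and oxidation, 3 were higher and 2 lower at an edgeR p under 0.05 (14.7%, beside 9.75% of all genes), with a median of 0.02. Cpt2, Etfa and Hadh, of the mitochondrial pathway, had log2 fold changes of 0.29, 0.18 and 0.24. Fabp3, a fatty acid carrier, and Cpt1b, the gate of mitochondrial entry, stood at -0.40 ± 0.16 and -0.14 ± 0.06. The 3 higher were 0 without untrained replicate 1, 6 without untrained replicate 3 and 1 without trained replicate 1, and the 2 lower were 4 without untrained replicate 2 and 0 without any 1 of the trained replicates. Of 34 regulators of the oxidative programme, 5 were lower and 0 higher at an edgeR p under 0.05, namely Esrra, Tbx15, Fnip1, Perm1 and Tfeb. These 5 are 14.7% of the list, beside 9.75% of all genes. Perm1, a muscle-specific partner of the PGC-1 and ERR pathway, stood at 311, 358 and 315 CPM untrained and 292, 229 and 199.7 CPM trained without overlap. Ppargc1a stood at 45.9, 59.7 and 43.1 CPM and 58.5, 50.5 and 33.6 CPM, with overlap, and Tfam at -0.03 ± 0.10. The count of lower regulators was 3 without untrained replicate 2 or trained replicate 2, and 2 without trained replicate 3.

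Glycolysis and glycogen genes lay below 0 in 24 of 32, with a median of -0.13, 6 lower and 0 higher at an edgeR p under 0.05. The 6 are 18.8% of the list, beside 9.75% of all genes. Ppp1r3a, which targets phosphatase 1 to glycogen, stood at 613, 454 and 528 CPM untrained and 389, 447 and 408 CPM trained. Slc2a4, the insulin-responsive glucose transporter GLUT4, stood at 560.3, 491 and 473 CPM and 456, 448 and 415 CPM, also without overlap. Tpi1, Slc16a1, Gyg and Gys1 were the other 4, at -0.44 to -0.15. The list's summed level was 33768 to 39904 CPM in untrained and 32364 to 35062 CPM in trained libraries, highest in untrained replicate 1. Without that library the median was -0.06 and 3 genes were lower.

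Ribosome and translation genes lay mostly below 0 by small amounts. Of 78 ribosomal protein genes 60 lay below 0, with a median of -0.10, 7 lower and 0 higher at an edgeR p under 0.05. The 7 are 8.97% of the list, no more than the share of all genes, and the summed levels overlapped, at 4615 to 4872 CPM in untrained and 4299 to 4697 CPM in trained libraries. Rpl4 stood at 491, 443 and 467 CPM untrained and 398, 391 and 412 CPM trained. The 7 were 3 without untrained replicate 1, 4 without untrained replicate 3 or trained replicate 2, 2 without trained replicate 1 and 21 without trained replicate 3, and the median was -0.05 without trained replicate 2. Many of these genes have processed pseudogenes, so single values are uncertain.

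Of 30 ribosome biogenesis genes 24 lay below 0, with a median of -0.16 and 5 lower, among them Polr1a, the large subunit of RNA polymerase I, and fibrillarin, Fbl. These 5 are 16.7% of the list, beside 9.75% of all genes. The 5 were 1 without untrained replicate 1, with a median of -0.07, 0 without trained replicate 1, 2 without trained replicate 2 and 3 without untrained or trained replicate 3. Of 32 translation factors 5 were lower, led by Eif5 at -0.33 ± 0.09, and Eef1a1 was higher. Together these are 18.8% of the list, beside 9.75% of all genes. The 5 were 3 without trained replicate 2. The chaperone of the endoplasmic reticulum Hspa5 fell from 144, 139 and 119.5 CPM to 100.2, 109.7 and 92.7 CPM, and Calr, which shares its compartment, stood at -0.23 ± 0.08. Of 33 chaperone genes 4 were lower and 1 higher (15.2%, beside 9.75% of all genes), and 1 was lower without untrained replicate 1 or trained replicate 3.

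Growth signals other than Igf1 were less separated. Mstn, the inhibitor of muscle growth, stood at 128, 99.9 and 72.99 CPM untrained and 72.97, 64.4 and 95.6 CPM trained and the groups overlapped. Of 28 genes of the myostatin, activin and TGF-beta pathway, 1 was higher and 3 lower at an edgeR p under 0.05 (14.3%, beside 9.75% of all genes). The 3 lower were 1 without untrained replicate 1 or trained replicate 2, and the higher ones were 3 without trained replicate 3. Smad7, an inhibitor of TGF-beta signalling, stood at 14.3, 12.9 and 11.5 CPM and 8.44, 7.67 and 11.2 CPM without overlap. Satellite cell genes were 3 higher and 0 lower of 22, Spry1, Notch1 and Heyl (13.6%, beside 9.75% of all genes). The count was 1 without trained replicate 1 or 2. Pax7, the marker of satellite cells, stood at -0.05 ± 0.36, Myod1 at 0.31 ± 0.40 and Myog at 0.32 ± 0.31.

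Cell cycle genes were 0 higher and 0 lower of 19 tested. Of 13 embryonic and regeneration genes, Actc1, cardiac actin, was higher, at 4.86, 1.06 and 2.67 CPM untrained and 7.03, 6.15 and 5.63 CPM trained, and Myl4, the embryonic light chain, was lower, at 4.30, 2.09 and 3.15 CPM and 1.13, 1.52 and 1.94 CPM. Actc1 stood higher still in the LD libraries, at 20.8, 15.8 and 11.7 CPM. Genes of the neuromuscular junction were 4 higher and 2 lower of 21 (28.6%, beside 9.75% of all genes), with Colq and Runx1 at 0.45 ± 0.17 and 0.62 ± 0.24. This was 1 higher and 0 lower without untrained replicate 1, 2 and 3 without untrained replicate 3, and 0 and 1 without trained replicate 2.

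Genes that follow time of day, feeding and stress differed mainly between untrained libraries. Pdk4, which shuts down glucose oxidation in fasting, stood at 6140.2, 628 and 2966 CPM in untrained and 1629, 1901 and 3594 CPM in trained libraries. Untrained replicate 1 was the highest and untrained replicate 2 the lowest of all 6. Of 21 glucocorticoid and fasting genes 19 lay below 0, with a median of -0.67, but 1 passed an edgeR p under 0.05, Nr3c1, the glucocorticoid receptor, at -0.22 ± 0.09. Without untrained replicate 1 the median was 0.10. The direction of this list thus turned with 1 library. Fos, an immediate early gene, stood at 41.4, 4.89 and 4.63 CPM untrained and 13.9, 8.41 and 3.33 CPM trained, again highest in untrained replicate 1. Fkbp5, Zbtb16 and Dbp in the plot of libraries that stand apart were chosen after their values were seen.

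Clock genes set untrained replicate 2 apart. Per2 stood at 9.99, 26.7 and 2.27 CPM untrained and 2.25, 3.85 and 2.52 CPM trained, and Arntl, its activator, at 37.6, 7.44 and 35.1 CPM and 34.3, 25.6 and 35.7 CPM. Per2 was highest and Arntl lowest in untrained replicate 2. Per1 stood at 84.6, 92.4 and 33.6 CPM and 33.4, 29.7 and 30.7 CPM. Of 19 clock genes 14 lay below 0, with a median of -0.19, 1 higher and 3 lower (21.1%, beside 9.75% of all genes). Without untrained replicate 2 the median was -0.01 with 0 higher and 1 lower, and without trained replicate 1 it was -0.23 with 0 higher and 0 lower. Without untrained replicate 3 it was -0.29 with 3 higher and 6 lower, and without untrained replicate 1 it was -0.33 with 1 higher and 4 lower. The time of day of sampling is not given in the labels used here. The part of these libraries' states in other differences was not tested.

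Leptin, Lep, was the adipocyte gene that fell. It stood at 2.41, 1.67 and 1.27 CPM in untrained and 0.188, 0.111 and 0.225 CPM in trained libraries, a fall by 3.34 ± 0.89 on the log2 scale (DESeq2 adjusted p 0.0025). The LD libraries had 0.343, 0.752 and 0.566 CPM, between the 2 groups. Of 15 adipocyte markers 11 lay below 0, with a median of -0.23, and the median was -0.06 without untrained replicate 1 and -0.46 without trained replicate 2. Their summed level was 3580 to 5074 CPM in untrained and 3458 to 3696 CPM in trained libraries.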

How the data were processed

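RNA-seq libraries of whole plantaris were compared in 3 trained and 3 untrained samples at 6 months. The values are expected counts per gene that the authors deposited, and 29.4% to 31.9% of the genes listed had values that were not whole in these libraries. Reads were aligned to mm10 with STAR 2.7.3a, and Partek and DESeq2 were used, per the submitters' processing notes. The counting method, its strand setting and the gene annotation were not given in the sources used here. Entries from 1000000 upward carry only 3 significant digits. Counts were rounded to whole numbers before testing.

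Genes were filtered with filterByExpr, scaled by trimmed means of M values and tested with edgeR 4.0.16 (quasi-likelihood, robust, 1 mean per group) in R 4.3.3. The fit held 12 libraries of 4 groups, without the LD block, so that the 9-month libraries helped to estimate the spread. P-values were adjusted by Benjamini-Hochberg over 14919 genes, and SE is the log2 fold change over the square root of F. The fit was tested on simulated data, where 60% of genes changed by 1 and 84% of genes changed by 2 (log2, higher) were called, with 10 of 14490 unchanged genes called. DESeq2 1.42.0 and voom in limma 3.58.1 were alternatives, as were other scalings, filters and sets of libraries.

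Named genes were the 12 of largest log2 fold change in each direction (unadjusted p under 0.01, no overlap, official symbol, average log2 CPM not under 2) and the 12 of smallest p in each direction. Up to 6 members per list with p under 0.05, or else up to 2 examples, 19 fixed genes and the 12 most abundant genes were added. A few genes that met this rule are not reported here. Other genes are named as chosen after their values were seen. The members and the 48 gene lists were chosen with earlier results of these data known. The 17 liver genes, the replicate block in 6 libraries and the DESeq2 runs without single libraries were chosen after seeing the data. Shares of counts cover counting error only.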

Additional observations from a re-analysis of the deposited data

How the results depend on the processing

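The count of genes passing an adjusted p of 0.05 was 0 in edgeR with DESeq2 size factors, library totals alone, the stricter filter or all 15 libraries. It was 112 in DESeq2, 2 in limma-voom, 8 with no filter on low counts and 4 when the fit held the 6 libraries only. Leaving out single libraries gave 0 to 10 in the fit of 12 libraries, with 10 without untrained replicate 3, 9 and 2 without detrained replicates 3 and 1, and 1 without trained replicate 2. In the fit of 6 libraries it gave 1 to 6, and in DESeq2, added after seeing the data, 32 to 147 (34, 121 and 147 without untrained replicates 1 to 3, and 34, 32 and 100 without trained replicates 1 to 3). The unadjusted count of 1455 ranged from 1035 to 1568 on leaving out libraries of the 12, and from 868 to 1492 in the 6-library fit. Higher genes ranged from 500 to 788 and from 452 to 802, lower genes from 517 to 796 and from 416 to 742 (485 without untrained replicate 1, 457 without trained replicate 1 and 416 without trained replicate 2 in the 6-library fit). Lower genes numbered 427 with library totals alone, a scaling that put the median of all genes at 0.04. With the replicate block 1 gene was called (Mib1) and 1376 were under the unadjusted threshold. The block in the 6-library fit, added after seeing the data, called 5. Same-numbered libraries had correlations of deviations of -0.059, 0.096 and -0.0085, so the numbers were not taken to pair them. Among single genes and list medians, 8934 values under alternatives stayed on their side of the threshold or within the replicate spread, 289 passed it only under the alternative and 122 moved. No named gene at an unadjusted p under 0.05 changed direction in any alternative run, but list medians near 0 (antioxidants, chaperones, oxidative regulators and muscle identity with library totals alone) changed sign, as did the glucocorticoid and fasting list without untrained replicate 1. The cause of these shifts was not tested. Genes at a few counts per library, such as the lymphocyte markers, are limited by depth.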

Other observations

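Antioxidant genes lay on both sides of 0. Of 35 tested, 3 were higher and 3 lower at an edgeR unadjusted p under 0.05 (17.1%, beside 9.75% of all genes). The list's median log2 fold change was -0.04, and 0.01 when scaled to library totals alone. Sod3, the secreted superoxide dismutase, stood at 5.16, 6.38 and 7.78 CPM in untrained and 11.1, 10.2 and 9.23 CPM in trained replicates 1 to 3, opposite in side to the secreted peroxidase Gpx3. Prdx2, a peroxiredoxin, stood at 71.5, 79.5 and 74.5 CPM untrained and 96.6, 92.4 and 86.7 CPM trained. The groups did not overlap for either gene.

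Of 19 tested imprinted growth genes, H19 was higher and Gnas and Nnat were lower at that threshold (15.8%, beside 9.75% of all genes). H19, a noncoding RNA, stood at 134, 245 and 205 CPM untrained, 258, 306 and 341 CPM trained, and 534, 682 and 599 CPM in the LD libraries. Of 24 tested immediate early genes, Fosl2, Nr4a2 and Klf2 were higher (12.5%, beside 9.75% of all genes). Klf2, which responds to blood flow in endothelium, stood at 18.0, 22.4 and 21.2 CPM untrained and 44.7, 39.2 and 26.5 CPM trained. Without untrained replicate 2 or 3 or trained replicate 2, 0 of the list were higher.

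The processed ferritin pseudogene Ftl2-ps, chosen after its values were seen, stood at 31.5 CPM in trained replicate 1, 33.9 CPM in untrained replicate 2 of the 9-month block and 27.9 CPM in detrained replicate 1. The other 12 libraries had 0 to 0.129 CPM. Its difference between trained and untrained muscle at 6 months had an edgeR adjusted p of 0.642.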
